A study of Mus musculus with 30 samples.

Results

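Transcripts of 8 cytokine genes were followed through sorted stromal cells of the mouse intestine. They are *Il33*, *Tslp*, *Il7*, *Il15*, *Il6*, *Il11*, *Lif* and *Clcf1*. They were chosen by name, as the alarmins, the lymphocyte survival factors and the interleukin-6 family ligands that stromal cells can make, and are 8 of the 32386 genes that the files hold after transcripts were summed by symbol.

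The libraries are bulk RNA-seq of 10 populations sorted from lamina propria, 5 of the small intestine (SI) and 5 of the colon, with 3 libraries of each. All came from untreated C57BL6/Nrj mice aged 8 to 10 weeks. Dead cells and cells positive for lineage markers, CD31, BP3 or EpCAM, or high for NCAM, were gated out first. The labels' protocol names 3 individual mice but does not tie the replicate numbers to mice, so a p-value here measures the spread between these samples. The study says that subsets of SI and colon were sorted from the same animals, so the groups compared can share mice.

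Pericytes of both tissues were sorted as PDGFRα- ESAM-1+ PDPN- cells. Smooth muscle cells (SMC) were sorted from the SI only, as PDGFRα- ESAM-1+ PDPN+ cells. The fibroblasts (FB) were all ESAM-1-. In the SI they were split into CD34- cells with high PDGFRα (PDGFRα hi FB), CD34- cells with intermediate PDGFRα (Fgfr2+ FB) and CD34+ cells with intermediate PDGFRα, a gate that holds both Igfbp5+ and CD81+ FB and is called CD34+ FB below. In the colon they were split into CD34- PDPN+ cells (PDGFRα hi FB) and 3 CD34+ gates, namely CD90- with intermediate PDPN (CD81+ FB), CD90+ with high PDPN (CD90+ FB) and CD90- with high PDPN (Fgfr2+ FB). The Fgfr2+ gate is therefore CD34- in the SI and CD34+ in the colon, and the PDGFRα hi gate rests on high PDGFRα in the SI and on PDPN in the colon. In both subsets the gate and the tissue cannot be told apart.

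Total estimated counts per library lay between 2245052 and 19096945, with a median of 9601683. The range was 2245052 to 15098412 in SI Fgfr2+ FB, 7327358 to 18148945 in SI PDGFRα hi FB, 9432531 to 11930055 in SI CD34+ FB, 8866828 to 13507159 in SI SMC and 6185421 to 9075187 in SI pericytes. In the colon it was 8740291 to 9785938 in Fgfr2+ FB, 6865683 to 7248567 in PDGFRα hi FB, 13102446 to 18710840 in CD81+ FB, 14456220 to 19096945 in CD90+ FB and 9225411 to 13866610 in pericytes. The least deep library was 1 of the SI Fgfr2+ FB. Levels below are CPM, each gene's share of the library total with TMM scaling, given in the order of replicates 1, 2 and 3 or as mean ± SD of 3 libraries.

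Of the sorting proteins' transcripts, *Esam* and *Pdgfra* followed the gates. *Esam* lay between 22.3 and 218 CPM in the 9 pericyte and SMC libraries and at or under 1.74 CPM in the 21 FB libraries. *Pdgfra* was 6208, 6854 and 6492 CPM in SI PDGFRα hi FB and 2389, 2398 and 2546 CPM in colonic PDGFRα hi FB, above every other population. *Thy1*, which encodes CD90, was 255, 175 and 159 CPM in colonic CD90+ FB. In the colonic gates named CD90- it was 120.4, 117 and 58.4 CPM in CD81+ FB and 28.4, 23.7 and 27.7 CPM in Fgfr2+ FB. *Fgfr2*, *Cd81* and *Hhip* are markers of the named subsets and were not gated on. *Fgfr2* was highest in SI Fgfr2+ FB, at 1469, 1982 and 1488 CPM, and its next highest values, 504, 459 and 457 CPM, were those of the colonic cells sorted under that name. *Cd81* was 388, 456 and 273 CPM in colonic CD81+ FB and 17.9, 12.1 and 64.2 CPM in colonic CD90+ FB. The SMC marker *Hhip* was 2518, 3506 and 4342 CPM in SI SMC and at most 269 CPM elsewhere. *Epcam* was at 0 in 28 of the 30 libraries.

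Other cell types were looked for with fixed marker lists, each given as its summed level from the lowest to the highest library. The 5 epithelial genes summed to 0 to 31.6 CPM, the 3 mesothelial genes to 0.268 to 15.9 CPM, the 4 glial genes to 2.24 to 28.1 CPM and the 4 genes of lymphoid tissue stroma to 3.55 to 60.6 CPM. The 6 immune genes summed to 7.48 to 217 CPM, with the highest library among SI pericytes. The 4 endothelial genes summed to 40.3 to 373 CPM, highest in colonic CD81+ FB, where *Tek* made 307 ± 35.3 CPM of it. The 4 mast cell genes summed to 0 to 43.4 CPM, and the 2 genes of interstitial cells of Cajal to 0.436 to 1094 CPM, highest in SI pericytes, where *Ano1* made 778 ± 283 CPM of it. The part of such cells in the cytokine levels was not tested.

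Interleukin-33 and TSLP are alarmins, released or secreted by barrier and stromal cells, that act on type 2 innate lymphoid cells, mast cells and T cells. Interleukin-7 and interleukin-15 keep lymphocytes alive, the first T cells and innate lymphoid cells, the second natural killer cells and intraepithelial lymphocytes. Interleukin-6, interleukin-11, LIF and CLCF1 all signal through the shared receptor chain gp130, which *Il6st* encodes, and on to STAT3, with roles in the gut that range from inflammation to epithelial repair.

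The cytokine genes differed widely in level. Per kilobase of effective transcript length, the only scale on which genes are compared here, the mean of the 10 population means was 48.1 CPM for *Il33* and 18 for *Il15*. It was 5.69 for *Lif*, 3.06 for *Tslp*, 2.53 for *Il6* and 2.51 for *Il7*. *Il11* and *Clcf1* were lowest, at 1.18 and 0.941 CPM per kilobase. The highest population was 60.6 ± 67.1 for *Il15*, in SI Fgfr2+ FB, and 19.3 ± 30.9 for *Lif*, in colonic pericytes. In replicate 1 of each, a short transcript weighs heavily on this scale. Il15-207, of 234 bases, took 100 counts, and Lif-203, of 390 bases, took 86. *Il7* and *Lif* had counts in all 30 libraries, whereas *Il6* was above 0 in 16 of them and above 3 counts in 12.

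**Figure D1:**
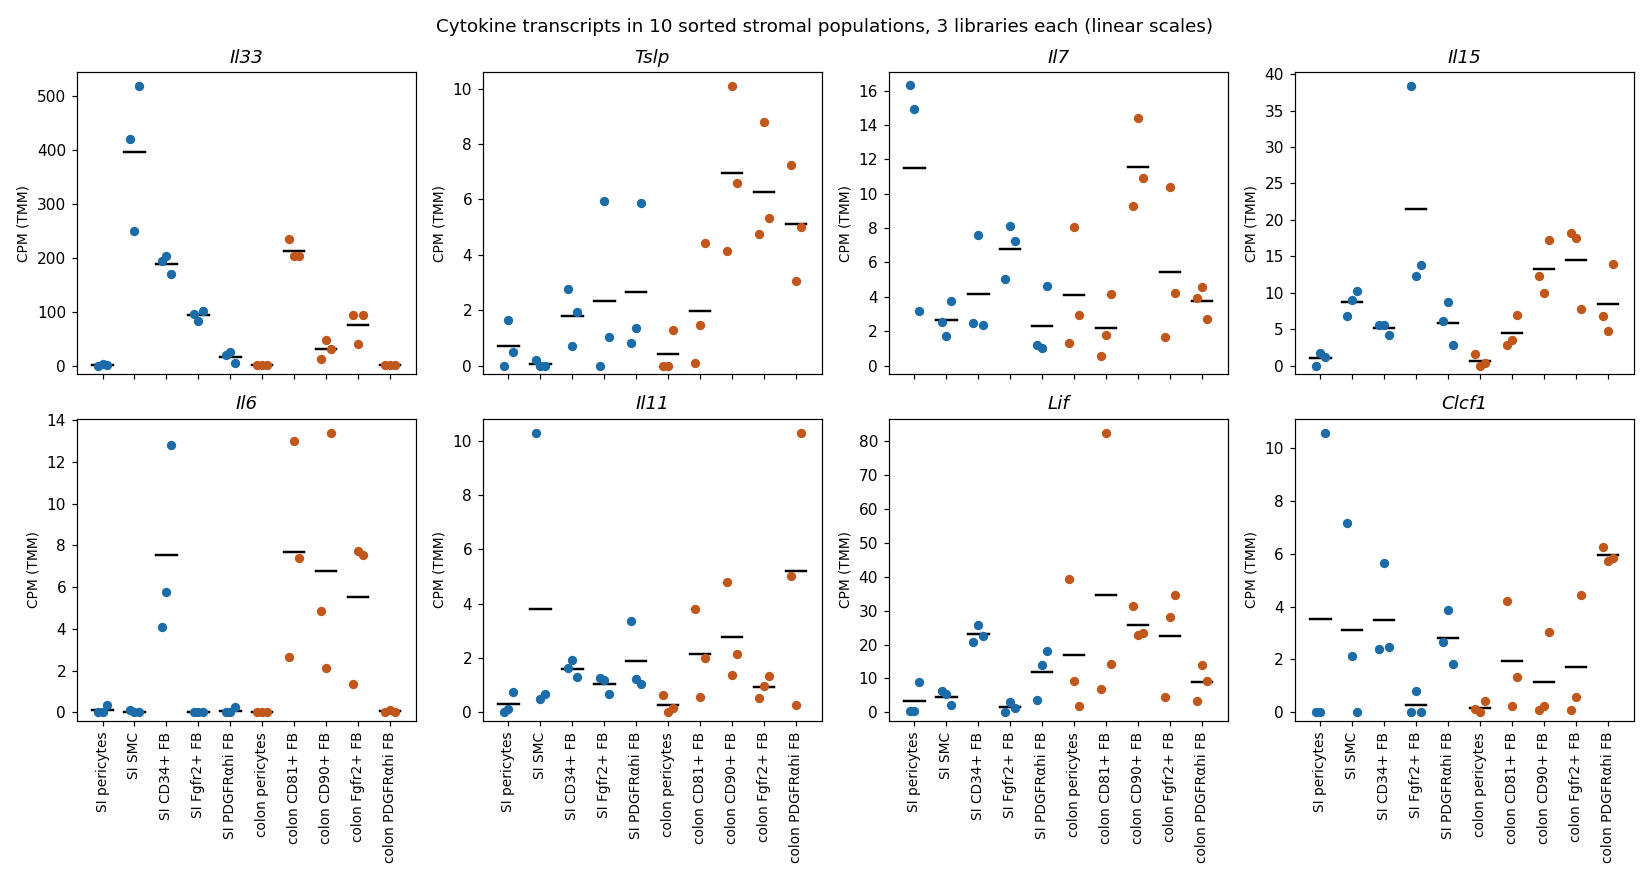
Level of each cytokine gene in every library, in CPM on linear axes that differ between panels, by sorted population; blue points are SI libraries, orange points colonic libraries and bars the means of 3. *Il33* stands at 396 ± 136 CPM in SI SMC, *Il15* at 21.5 ± 14.6 CPM in SI Fgfr2+ FB, and *Il6* is near 0 in 6 of the 10 populations.

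*Il33*, the alarmin, spanned the widest range. SI SMC had 419.9, 250.3 and 519 CPM. Colonic CD81+ FB had 234, 203 and 203 CPM. SI CD34+ FB had 194, 203 and 169.8 CPM. These are the 3 highest populations, and each SMC library exceeded every FB library. Fgfr2+ FB followed at 95.2, 83.3 and 102 CPM in the SI. In the colon the same subset had 94.0, 40.6 and 93.9 CPM. Colonic CD90+ FB had 12.8, 47.0 and 31.3 CPM. Fgfr2+ FB of the tissues thus overlapped, and replicate 2 of the colonic ones fell inside the range of CD90+ FB.

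At the low end, SI PDGFRα hi FB had 18.9, 25.1 and 5.28 CPM of *Il33*. Colonic PDGFRα hi FB had 0.613, 0.893 and 0.136 CPM. Pericytes had 0, 2.78 and 0.861 CPM in the SI and 0.430, 0.126 and 0.359 CPM in the colon. Every SI PDGFRα hi library therefore lay above every colonic one, and colonic PDGFRα hi FB overlapped with the pericytes of both tissues.

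In order of their means, SI SMC stood first at 396 ± 136 CPM, without overlap with colonic CD81+ FB at 213 ± 18.2 CPM. CD81+ FB overlapped with SI CD34+ FB at 189 ± 17.3 CPM, which in turn stood apart from SI Fgfr2+ FB at 93.4 ± 9.32 CPM. Colonic Fgfr2+ FB at 76.2 ± 30.8, colonic CD90+ FB at 30.3 ± 17.1 and SI PDGFRα hi FB at 16.4 ± 10.1 CPM each overlapped with the next above. A gap without overlap then separated SI pericytes at 1.21 ± 1.42, colonic PDGFRα hi FB at 0.547 ± 0.383 and colonic pericytes at 0.305 ± 0.159 CPM. In bulk libraries, fewer cells that make a transcript and less of it per cell cannot be told apart.

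*Tslp*, the other alarmin, was scarce (GRCm38 position chr18:32815383-32819797, + strand). Its highest populations were colonic, with 4.12, 10.1 and 6.61 CPM in CD90+ FB, 4.75, 8.78 and 5.32 CPM in Fgfr2+ FB and 7.23, 3.06 and 5.02 CPM in PDGFRα hi FB. All 9 of these libraries exceeded every pericyte and SMC library and every SI CD34+ FB library. Colonic CD81+ FB spread from 0.0780 to 4.41 CPM. SI FB libraries ranged from 0 to 5.96 CPM, and pericytes and SMC from 0 to 1.64 CPM. Each population overlapped with the next in the order of means, from CD90+ FB at 6.94 ± 3.00 CPM to SI SMC at 0.0704 ± 0.122 CPM. SI SMC held 3 counts or fewer in every library, so that colonic CD90+ FB were at least 22.3-fold higher, against a floor of 3 counts per library.

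*Il7*, the survival factor of T cells and innate lymphoid cells, was found in all libraries. Colonic CD90+ FB had 9.28, 14.4 and 10.9 CPM, and SI pericytes had 16.3, 14.9 and 3.2 CPM. Replicate 3 set the SI pericytes' low value, and the remaining pair exceeded every other library. The next means were those of Fgfr2+ FB, at 6.80 ± 1.6 CPM in the SI and 5.44 ± 4.52 CPM in the colon. The lowest was 2.16 ± 1.84 CPM in colonic CD81+ FB. Every neighbour in the order overlapped with the next, although CD90+ FB did not overlap with colonic CD81+ or PDGFRα hi FB. *Il7* shares exon sequence with an antisense gene, *Gm16685*, and 1.49% of its 31-base stretches are found elsewhere in the transcriptome.

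*Il15*, which sustains natural killer cells and intraepithelial lymphocytes, lay higher in fibroblasts and muscle than in pericytes. SI Fgfr2+ FB had 38.4, 12.3 and 13.8 CPM, colonic Fgfr2+ FB 18.2, 17.5 and 7.77 CPM and colonic CD90+ FB 12.3, 9.98 and 17.3 CPM. These populations overlapped, and replicate 1 alone made the SI mean of 21.5 ± 14.6 CPM the highest. SI SMC had 6.75, 8.95 and 10.3 CPM and colonic PDGFRα hi FB 6.74, 4.72 and 14.0 CPM. SI PDGFRα hi FB at 5.91 ± 2.92, SI CD34+ FB at 5.13 ± 0.817 and colonic CD81+ FB at 4.45 ± 2.24 CPM came next. Pericytes had 0, 1.77 and 1.23 CPM in the SI and 1.61, 0 and 0.287 CPM in the colon. All 6 pericyte libraries lay below all 24 others, the only gap in the order.

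*Il6* was present in 4 of the 10 populations and close to absent in the rest. Colonic CD81+ FB had 2.65, 13 and 7.41 CPM. SI CD34+ FB had 4.1, 5.75 and 12.8 CPM. Colonic CD90+ FB had 4.83, 2.12 and 13.4 CPM, and colonic Fgfr2+ FB 1.34, 7.71 and 7.54 CPM. These are the CD34+ gates of both tissues, and they overlapped with one another throughout. SI Fgfr2+ FB and colonic pericytes had 0 CPM in every library. In SI pericytes, SI SMC and PDGFRα hi FB of both tissues the highest library had 0.369 CPM, at 3 counts. Each of the 12 libraries of the CD34+ gates exceeded each of the 18 others.

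*Lif*, which acts through the LIF receptor and gp130, was more widely spread. SI CD34+ FB had 20.7, 25.9 and 22.6 CPM and colonic CD90+ FB 31.3, 22.9 and 23.4 CPM, the 2 populations whose replicates lay close together at a high level. Colonic CD81+ FB had 6.94, 82.6 and 14.2 CPM, colonic Fgfr2+ FB 4.65, 28.0 and 34.5 CPM and colonic pericytes 39.4, 9.32 and 1.72 CPM. In each of these last 3 populations the libraries lay far apart, and the 3 overlapped with one another. SI Fgfr2+ FB were lowest, at 0.0698, 3.07 and 1.38 CPM, under every FB library of the other 6 FB populations. Every neighbour in the order of means overlapped with the next, from colonic CD81+ FB at 34.6 ± 41.7 CPM to SI Fgfr2+ FB at 1.51 ± 1.5 CPM.

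*Il11* and *Clcf1* were the scarcest members. *Il11*, a gp130 ligand linked to fibrosis and epithelial repair, was highest on average in colonic PDGFRα hi FB, at 5.02, 0.255 and 10.3 CPM, and in SI SMC, at 10.3, 0.481 and 0.660 CPM. Both means rest on 1 or 2 high libraries, and both populations overlapped with the rest. The steadier SI CD34+ FB, at 1.62, 1.92 and 1.29 CPM, stood just above SI Fgfr2+ FB, at 1.26, 1.17 and 0.691 CPM. *Clcf1*, whose product acts on the CNTF receptor, was highest and most even in colonic PDGFRα hi FB, at 6.25, 5.74 and 5.84 CPM. The other populations ranged from 0 to 10.6 CPM, with that maximum in replicate 3 of SI pericytes, while replicates 1 and 2 had 0. *Clcf1* is uncertain, because it shares exons on the same strand with the gene *AC109138.7*, which holds 7.33% of its 31-base stretches, and 73.4% of its count fell on a transcript annotated as a retained intron. For *Il11*, 5.15% of the stretches occur in other genes.

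The first test asked which of the genes differed anywhere among the 10 populations. Here and below, edgeR's quasi-likelihood test was fitted on all genes that passed a filter on low counts, and a call needs a Benjamini-Hochberg adjusted p under 0.05 together with a log2 difference over 1.5. All 8 genes were tested, and 3 were called, *Il33*, *Il15* and *Il6*, beside 25.8% of the 17564 genes tested. *Il33* spanned 10.25 on the log2 scale between its highest and lowest fitted population, at an adjusted p of 2.92e-11. *Il15* spanned 5.06, at an adjusted p of 0.00951, and 6.97 without colonic pericyte replicate 1. *Il6* had an adjusted p of 2.99e-05, and its span is not given because populations at 0 make a fitted fold depend on the prior count. It passed the filter only through libraries of the CD34+ gates, where it is high, and it was called without the filter too. *Lif* missed the threshold at 0.0769, and *Tslp*, *Il11*, *Il7* and *Clcf1* at 0.144, 0.21, 0.212 and 0.523. *Lif* was called without colonic pericyte replicate 1 (adjusted p 0.0457), colonic pericyte replicate 3 (0.0489) or SI pericyte replicate 3 (0.0134, at a span of 6.16 against 4.51), and also without the filter on low counts (0.0231). *Tslp* was called without colonic pericyte replicate 3 (0.0403), where the remaining colonic pericyte libraries were at 0 and no fitted span is given. DESeq2 called *Tslp*, *Il7*, *Il11* and *Lif* besides the 3, among 6199 genes.

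The colon was asked whether fibroblasts exceeded pericytes. *Il33*, *Il15* and *Il6* were higher in the mean of the 4 FB populations, 3 of 8 genes called beside 16.0% of the 17564 tested. *Il33* was higher by 6.14 ± 0.78 (SE) on the log2 scale, at an adjusted p of 6.68e-07, although colonic PDGFRα hi FB overlapped with pericytes. *Il15* was higher by 3.84 ± 0.99, at an adjusted p of 0.00624, with all 12 FB libraries above all 3 pericyte libraries. Without colonic pericyte replicate 1, the only one with more than 0.287 CPM, its difference was 5.74. *Il6* was called at an adjusted p of 0.00586. It passed the filter only through libraries of the CD34+ gates of both tissues, and it was called without the filter too. Its level was at least 25.2-fold higher in CD81+ FB, 22.2-fold in CD90+ FB and 18.1-fold in Fgfr2+ FB than in pericytes, where no library had a count. The bound for CD81+ FB was 16.5-fold without their replicate 2, and that for CD90+ FB 11.4-fold without their replicate 3. That call ended, at an adjusted p of 1, without colonic PDGFRα hi replicate 2, which held that population's only count. *Tslp* had a difference of 3.32 ± 1.52 at an adjusted p of 0.132, and was called without colonic pericyte replicate 3, at an adjusted p of 0.0209. The remaining pericyte libraries were then at 0, so that no fitted fold is given. *Il11* and *Clcf1* differed by 3.09 ± 1.31 and 3.43 ± 1.79, with adjusted p of 0.102 and 0.192, and *Lif* by 0.29 ± 0.90. DESeq2 called *Tslp* (0.027) and *Il11* (0.0178) as well, among 3261 genes.

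In the SI the same question was asked of FB against pericytes and SMC together. *Il33* alone was called, 1 of 8 genes beside 9.13% of the 17564 tested, at 1.55 ± 0.43 higher on the log2 scale in the mean of 3 FB populations than in the mean of pericytes and SMC, with an adjusted p of 0.0147. That contrast averages populations as unlike as SMC at 396 ± 136 CPM and pericytes at 1.21 ± 1.42 CPM, and SMC exceeded every FB population. The difference dropped under 1.5 without SI pericyte replicate 1 (1.3) or 3 (1.43), without SMC replicate 2 (1.43) or without SI PDGFRα hi replicate 2 (1.40), and rose to 2.22 without SI pericyte replicate 2. Against pericytes alone, a contrast chosen after seeing the data, *Il33* was higher in FB by 5.67 ± 0.73, at an adjusted p of 1.03e-06. *Il15* was then called too, at 3.06 ± 0.95 and an adjusted p of 0.0227. Against both mural populations *Il15* differed by 1.53 ± 0.65, at an adjusted p of 0.124. *Tslp* differed by 3.2 ± 1.17, at an adjusted p of 0.0708. It was called without colonic pericyte replicate 3 (0.0485), SMC replicate 1 (0.0487) or SI Fgfr2+ replicate 1 (0.0409). Without SMC replicate 1 the remaining SMC libraries were at 0, so that no fitted fold is given. DESeq2 called *Tslp* too (0.0159), among 2159 genes.

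Pericytes and SMC of the SI, both ESAM-1+, were then compared directly. *Il33* was the 1 gene called of the 6 tested, beside 2.85% of 13769. The log2 difference of pericytes from SMC was -8.31 ± 1.14, at an adjusted p of 0.00451, and -9.66 without SI pericyte replicate 2. By the means SMC held 327-fold more *Il33*, 218-fold without SI pericyte replicate 1 and 921-fold without replicate 2. *Tslp* and *Il6* were too scarce in these 6 libraries to be tested. *Il15* differed by -3.11 ± 1.51, at an adjusted p of 0.406, although its 3 SMC libraries lay above the 3 of pericytes.

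Pericytes of the tissues, sorted by the same gate, were compared next. Only *Il7*, *Il15* and *Lif* had enough counts, and edgeR called 0 of the 3 beside 0% of 13369 genes. None of the 3 had an unadjusted p under 0.05 in edgeR. DESeq2 was fitted on the same 3 and called none, with *Il15* left without an adjusted p. Over all genes, 1094 had an unadjusted p under 0.05 in edgeR and 354 were called by DESeq2. *Lif* differed by -2.32 ± 1.69 between SI and colon and *Il7* by 1.5 ± 1.38.

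PDGFRα hi FB were compared between the tissues, with the caution that their gates differ too. *Il33* was 18.9, 25.1 and 5.28 CPM in the SI against 0.613, 0.893 and 0.136 CPM in the colon, a ratio of means of 30. It was the 1 member called of 8, beside 1.76% of 15677 genes, with a log2 difference of 4.82 ± 0.70 and an adjusted p of 0.000833. The remaining 7 had adjusted p of at least 0.894. The cells differed in other markers too. The 5 SMC genes summed to 2080.4, 3397 and 2373 CPM in SI and 1305, 1189 and 2185 CPM in colonic PDGFRα hi FB. Their most SMC-restricted member, *Hhip*, was lower in the SI cells, at 1.88, 4.23 and 2.41 CPM against 60.0, 53.5 and 73.9 CPM. *Cd34* was 102, 95.2 and 155 CPM in SI and 31.7, 36.2 and 33.3 CPM in colonic PDGFRα hi FB. The 6 pericyte genes summed to 3172, 3719 and 3091 CPM in the SI cells against 633, 579.7 and 655 CPM in the colonic ones, and *Abcc9* was 1784 ± 277 against 204 ± 16.2 CPM. *Notch3*, another of the 6, was at most 5.36 CPM in the SI cells and at most 1.84 CPM in the colonic ones. *Kit* was 7.10, 8.52 and 43.4 CPM against 0.123, 0.128 and 1.90 CPM, and *Ano1* 0, 2.31 and 0.115 CPM against 78.3, 76.9 and 81.5 CPM. The 6 immune genes summed to 33.1, 39.7 and 9.99 CPM against 7.48, 19.3 and 13 CPM. Of these, *Lyz2* was higher in replicates 1 and 2 of the SI cells, at 23.0, 27.2 and 2.87 CPM against 1.59, 5.1 and 3.39 CPM, and *Cd74* was at most 2.85 CPM in either. SI pericytes had 5479, 7294 and 5744 CPM of *Notch3* and 0, 2.78 and 0.861 CPM of *Il33*. The part of other cells in the *Il33* difference was not tested.

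In Fgfr2+ FB the member called between the tissues was *Il6*. SI Fgfr2+ FB had 0 CPM in every library against 1.34, 7.71 and 7.54 CPM in the colon, at least 10.9-fold higher there, and at least 23-fold without the shallow SI Fgfr2+ replicate 3. It was the 1 called of 8, beside 3.09% of 15677 genes, at an adjusted p of 0.0432. It passed the filter on low counts only through the colonic Fgfr2+ libraries, and it was called without the filter too. The call ended without SI Fgfr2+ replicate 1 (adjusted p 0.105), 2 (0.0925) or 3 (0.0651), colonic PDGFRα hi replicate 1 (0.0581), 2 (0.0567) or 3 (0.0593), or SI PDGFRα hi replicate 1 (0.0553). With any colonic Fgfr2+ library left out, *Il6* fell under the filter and was not tested. With replicate number as a block its adjusted p was 0.0717, and *Lif* was called, at 0.0163. *Lif* was also called without the filter (0.0323) and by DESeq2 (0.00346). It had 0.0698, 3.07 and 1.38 CPM in SI against 4.65, 28.0 and 34.5 CPM in colonic Fgfr2+ FB, without overlap, a log2 difference of -3.82 ± 1.13 and an adjusted p of 0.0818. *Il33* differed by 0.34 ± 0.54, at an adjusted p of 0.804.

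Whether the difference between tissues itself differed between the subsets was tested as an interaction, in which the gates of both subsets differ along with the tissue. *Il33* passed, with a tissue difference 4.48 ± 0.87 larger in PDGFRα hi than in Fgfr2+ FB on the log2 scale and an adjusted p of 0.014. It was the 1 member called of 8, beside 1.28% of 15677 genes. *Lif* and *Il6* had adjusted p of 0.246 and 0.181, so that no such difference between the subsets was shown for either.

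Irrespective of tissue, *Il33* was higher in Fgfr2+ than in PDGFRα hi FB, with 40.6 to 102 CPM in the 6 Fgfr2+ libraries and 0.136 to 25.1 CPM in the 6 others. It was the 1 member called of 8, beside 2.69% of 15677 genes, at a log2 difference of 3.36 ± 0.86 and an adjusted p of 0.0425. The fit had subset as its only term and did not include tissue. DESeq2 called *Il33* too, among 695 genes, and edgeR did so with all 30 libraries in 1 model. In the fit reported, the call is narrow. The adjusted p was 0.0701, 0.0508 or 0.0681 without colonic Fgfr2+ replicate 1, 2 or 3 and 0.0572, 0.0628 or 0.0716 without SI Fgfr2+ replicate 1, 2 or 3. It was 0.0649 or 0.0723 without colonic PDGFRα hi replicate 1 or 2, and 0.0878 without SI PDGFRα hi replicate 3. Without SI PDGFRα hi replicate 2 the difference was 4.07, and with replicate number as a block the adjusted p was 0.0739. *Il6* and *Il15* had adjusted p of 0.115 and 0.176.

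Within the SI, CD34+ FB were compared with the CD34- Fgfr2+ FB. *Il6* had 4.1, 5.75 and 12.8 CPM against 0 in every library, at least 14.9-fold. The bound was 9.74-fold without CD34+ replicate 3 and 31.4-fold without Fgfr2+ replicate 3. It was the 1 member called of 8, beside 2.64% of 14978 genes, at an adjusted p of 0.0331. It passed the filter only through the CD34+ libraries, and it was called without the filter too. It was not tested when a CD34+ library was left out, since it then fell under the filter, and its adjusted p was 0.0683 with replicate number as a block. *Lif*, at a log2 difference of 3.86 ± 1.06, had an adjusted p of 0.0912, and was called without SI Fgfr2+ replicate 1 (0.0187, at 3.19) or 2 (0.0492, at 5.52). *Clcf1*, at 3.40 ± 1.40 and an adjusted p of 0.236, was called without SI Fgfr2+ replicate 2 (0.046). The remaining Fgfr2+ libraries were then at 0, so that no fitted fold is given. *Il15* leaned the other way, at -2.12 ± 0.60 and an adjusted p of 0.0997, and *Il33* differed by 0.95 ± 0.21, at 0.0565. DESeq2 called *Il15*, *Il6* and *Lif*, among 1057 genes.

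Among the colonic CD34+ FB, CD81+ cells were compared with CD90+ cells. edgeR called 0 of the 8 genes, beside 0.224% of 15158. *Il33* and *Il7*, 2 of the 8, had an unadjusted p under 0.05, and DESeq2 called 1, *Il33*. *Il33* was 7.03-fold higher in CD81+ FB by the means, without overlap, with a log2 difference of 2.82 ± 0.48 and an adjusted p of 0.0604. Without CD81+ replicate 1 it was called, at 2.75 and an adjusted p of 0.0313. It was also called without the filter (0.015) and with all 30 libraries in 1 model (0.0298). *Il7* was higher in CD90+ FB, also without overlap, with -2.41 ± 0.90 and an adjusted p of 0.377.

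Early response genes, which rise within minutes of tissue dissociation and include the AP-1 parts *Fos*, *Fosb*, *Jun* and *Junb*, varied among the same populations. The 12 genes of that list summed to 3701, 8109 and 7829.5 CPM in colonic Fgfr2+ FB and to 1019.8, 708 and 694 CPM in SI Fgfr2+ FB. *Egr1*, the most abundant, made 3406 CPM of the colonic mean. Of the 12, 9 were called lower in the SI cells, in the comparison in which *Il6* was called, beside 3.09% of all genes called in either direction. The 12 genes summed to 3852, 3059.8 and 5032 CPM in SI CD34+ FB. Of them, 3 were called higher there than in SI Fgfr2+ FB, beside 2.64% of all genes called in either direction. In that comparison 9 had an unadjusted p under 0.05 and DESeq2 called 9. Pericytes had sums of 10014, 12986 and 11284 CPM in the colon and 6179, 15937 and 7456 CPM in the SI, with *Il6* at or under 3 counts. Colonic CD81+ FB had sums of 8984, 12527 and 8105 CPM, with *Il6* at 2.65, 13 and 7.41 CPM.

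Over the 21 FB libraries the log2 level of *Il6* and the log2 sum had a Pearson r of 0.87, and over all 30 libraries of 0.44. For *Lif* r was 0.57 and 0.25. For *Il15* r was -0.25 and -0.56, for *Il33* 0.42 and -0.27, and for *Il11* -0.03 and -0.37. For *Tslp* r was 0.08 and 0.00, for *Il7* -0.09 and 0.09, and for *Clcf1* -0.02 and -0.19. *Il6* and *Lif* themselves had an r of 0.64 over 30 libraries. These r are descriptions, since the libraries of a population share its identity. The part of the early response in the *Il6* and *Lif* levels was not tested.

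The list differed elsewhere too. In the SI, 5 of 12 genes were called lower in the mean of FB than in that of mural cells, beside 9.13% of all genes called in either direction. In the colon 6 of 12 were called lower in FB, beside 16.0%. SI SMC nonetheless had sums of 927, 1099 and 714 CPM, below every SI CD34+ FB library. The sums of colonic CD81+ FB overlapped with those of colonic pericytes. Between SI pericytes and SMC 6 of 12 were called, all higher in pericytes, beside 2.85% of all genes. There 11 had an unadjusted p under 0.05 and DESeq2 called 10. *Fosb* was the 1 called between CD81+ and CD90+ FB, higher in CD81+ FB, beside 0.224% of all genes. In that comparison 10 had an unadjusted p under 0.05 and DESeq2 called 7. *Egr1* was the 1 called in the interaction, beside 1.28% of all genes. There 7 had an unadjusted p under 0.05 and DESeq2 called 4. Over the 10 populations 11 of 12 were called, beside 25.8% of all genes. edgeR called 0 of the 12 between Fgfr2+ and PDGFRα hi FB, between PDGFRα hi FB of the tissues and between pericytes of the tissues. The shares of all genes called there were 2.69%, 1.76% and 0%. In these comparisons 6, 6 and 2 of the list had an unadjusted p under 0.05, and DESeq2 called 3, 2 and 0.

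**Figure D2:**
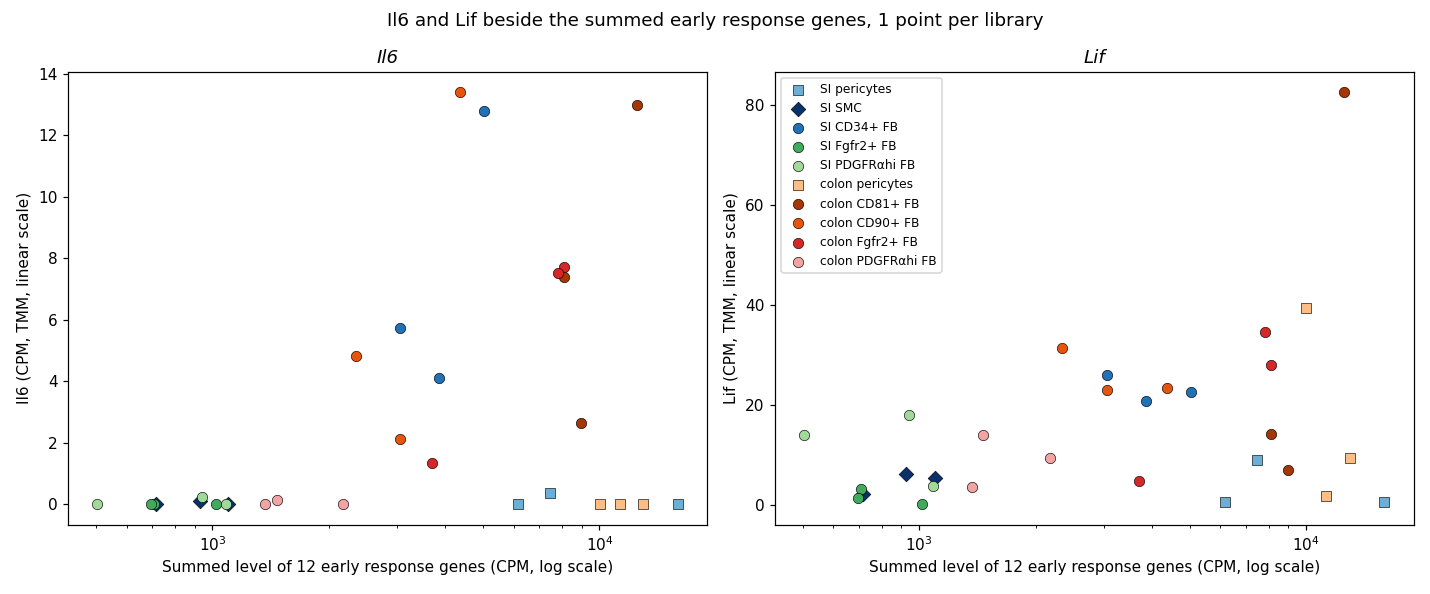
*Il6* and *Lif* in CPM on linear axes against the summed level of 12 early response genes in CPM on a log axis, 1 point per library, coloured by population. *Il6* reaches 13.4 CPM in a colonic CD90+ FB library with a sum of 4361 CPM, while pericytes with sums of 6179 to 15937 CPM stay at or under 0.369 CPM.

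The receptors and other partners of these cytokines were followed as a fixed list of 30 genes. Of 28 tested over the 10 populations, 15 were called, beside 25.8% of all genes. They include the gp130 gene *Il6st*, with a span of 2.34 and an adjusted p of 1.09e-06, the LIF receptor gene *Lifr*, with 3.06 and 4.14e-06, and *Il1rl1*, which encodes the interleukin-33 receptor ST2, with 3.65 and 0.00593. *Il6st* was abundant everywhere, from 494 ± 46.9 CPM in SI SMC to 2496 ± 552 CPM in SI pericytes. *Il1rl1* was highest in colonic PDGFRα hi FB, at 55.9, 18.4 and 37.9 CPM, the FB population with the least *Il33*. In every other library it was at most 11.6 CPM. The ligand gene *Osm* was at 0 in all 30 libraries, which allows up to 3 counts in each.

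Among receptor chains of the gp130 family, *Cntfr*, which binds CNTF and CLCF1, and *Il11ra1*, which binds interleukin-11, were called higher in the mean of the FB populations than in mural cells of both tissues. SI SMC nonetheless had 7.52 ± 9.13 CPM of *Cntfr*, against 34.3 ± 9.77 in CD34+, 6.58 ± 2.86 in PDGFRα hi and 2.11 ± 2.07 CPM in Fgfr2+ FB of the SI. They had 33.8 ± 13.5 CPM of *Il11ra1*, against 36.4 ± 2.89 CPM in SI CD34+ FB and 3.58 ± 5.54 CPM in SI pericytes. In the SI, 4 of 28 list genes were called, all higher in FB, beside 9.13% of all genes. *Il11ra1* differed by 2.12 and *Lifr* by 1.55 on the log2 scale. *Il2rb*, part of the interleukin-15 receptor, was called on libraries of at most 5.92 CPM. It passed the filter on low counts only through SI FB libraries. It was at 0 in every SI pericyte and SMC library, so that no fitted fold is given. DESeq2 called 3 of the list in the SI. In the colon *Il11ra1* was higher in FB by 2.58. *Cntfr* was at 0 in every pericyte library of both tissues, so that no fitted fold is given. There 4 of 28 list genes were called, 2 higher and 2 lower in FB, a share below the 16.0% of all genes. *Il2rg*, the chain shared by the interleukin-7 and interleukin-15 receptors, was called lower in FB, and colonic pericytes had 40.9, 121 and 2.73 CPM of it. The 6 immune genes summed to 12.3, 157 and 67.2 CPM in those libraries, with *Cd74* the most abundant at 36.6 CPM on average and *Cd3e* at 0, and their part was not tested.

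*Lifr* set SI Fgfr2+ FB apart. It was 886, 508 and 536 CPM there against 222, 167 and 155 CPM in colonic Fgfr2+ FB, higher by 1.86 ± 0.27 at an adjusted p of 0.00108. Against SI CD34+ FB the log2 difference of CD34+ from Fgfr2+ FB was -2.32 ± 0.28, at an adjusted p of 0.00771. The population with the least *Lif* thus had the most *Lifr*, and every one of its libraries exceeded the 27 others. *Socs3*, the feedback inhibitor that STAT3 induces, ran the opposite way, at 41.4, 7.94 and 14.9 CPM in SI and 72.3, 308 and 212 CPM in colonic Fgfr2+ FB, with -3.16 ± 0.78 and an adjusted p of 0.0361. With these, 2 of 25 list genes were called in that comparison, beside 3.09% of all genes, where DESeq2 called 4. Between SI CD34+ and Fgfr2+ FB 2 of 26 were called, beside 2.64%, where DESeq2 called 3. There *Cntfr* was higher in CD34+ FB by 4.09 ± 0.81.

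Of the same list, *Il6st* was the 1 of 19 called between SI pericytes and SMC, beside 2.85% of all genes. It was higher in pericytes by 2.3 ± 0.39, and DESeq2 called 4 of the list there. *Il2rg* was the 1 of 25 called in the interaction, beside 1.28% of all genes. edgeR called 0 of 25 between Fgfr2+ and PDGFRα hi FB, 0 of 25 between PDGFRα hi FB of the tissues, 0 of 20 between pericytes and 0 of 25 between CD81+ and CD90+ FB. The shares of all genes called there were 2.69%, 1.76%, 0% and 0.224%. In those comparisons, 5, 9, 2 and 1 list genes had an unadjusted p under 0.05, and DESeq2 called 2, 1, 0 and 0.

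Likeness was measured by Pearson's r of log2 CPM over the 30 libraries, among genes that reach 10 CPM on average in at least 1 population. *Il33* was most like *Efna5* (r 0.893), *Dapk1* (0.870) and *Adamts19* (0.866). *Il15* was most like *0610037L13Rik* (0.883), *Ereg* (0.861) and *Scube1* (0.856). *Il6* was most like *Srrm4* (0.932), *Fam198a* (0.891) and *Adh1* (0.886). *Efna5* encodes an ephrin and *Ereg* the growth factor epiregulin, which binds the EGF receptor. For *Lif* the genes were *Cxxc5* (0.827), *Tspyl3* (0.825) and *Jade3* (0.790), and for *Tslp* they were *Ece2* (0.775), *B3gnt3* (0.762) and *Wdr92* (0.752). *Il7* reached 0.664 with *Cd46*, and 0.606 with *Ppil3* and with *Nr2f1*. *Il11* reached 0.743 with *Mcm3* and 0.674 with *Ggh*, and *Clcf1* 0.666 with *Mcm3* and 0.664 with *Gm9930* and with *Slc7a5*. The libraries of a population share its identity, so that these r are descriptions.

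The genes other than *Tslp* lie apart in the genome (GRCm38, GENCODE M21). *Il33* is on the + strand at chr19:29925114-29960718 and *Clcf1* on the + strand at chr19:4214238-4223490. *Il6* is on the + strand at chr5:30013114-30019981 and *Lif* on the + strand at chr11:4257557-4272514. *Il7* is on the - strand at chr3:7569994-7613760, *Il15* on the - strand at chr8:82331632-82403222 and *Il11* on the - strand at chr7:4772373-4782859.

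*Il33* has 2 promoters in the RefSeq table (GRCm38.p6), and its transcripts divide unequally between them. Of the *Il33* count, 95.7% fell on transcript Il33-202, which starts inside the upstream window at chr19:29924863-29925162, and 3.25% on Il33-201, which starts inside the downstream window at chr19:29945540-29945839. Such shares are kallisto's division of reads among transcripts that share most of their sequence. The upstream window is printed, 5′ to 3′ on the + strand, because it holds the start of the transcript with nearly all of the count, and the downstream one to set the other start beside it. Capitals mark the letters TATAAA, searched on both strands and found in 13.6% of the 32851 promoters of the table. In the upstream window they begin at -203 from the start and in the downstream one at -29.
Il33 upstream: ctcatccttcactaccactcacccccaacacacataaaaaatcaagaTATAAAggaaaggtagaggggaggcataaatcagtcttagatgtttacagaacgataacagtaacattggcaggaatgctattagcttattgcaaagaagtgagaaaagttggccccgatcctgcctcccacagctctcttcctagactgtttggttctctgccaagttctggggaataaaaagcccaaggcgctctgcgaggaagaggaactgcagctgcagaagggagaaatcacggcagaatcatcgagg
Il33 downstream: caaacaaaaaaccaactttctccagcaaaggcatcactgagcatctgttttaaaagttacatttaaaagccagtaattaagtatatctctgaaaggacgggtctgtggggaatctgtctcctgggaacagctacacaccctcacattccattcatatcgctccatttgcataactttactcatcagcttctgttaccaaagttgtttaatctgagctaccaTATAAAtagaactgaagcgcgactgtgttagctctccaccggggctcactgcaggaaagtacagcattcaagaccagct

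The promoter of *Il6*, at chr5:30012864-30013163 on the + strand (GRCm38.p6), is printed because its transcript varied with the early response list among FB. The r was 0.87 over the 21 FB libraries and 0.44 over all 30. That list includes genes that encode AP-1, and the part of AP-1 in the *Il6* level was not tested. The letters TGANTCA of AP-1, TGACGTCA of the cAMP response element and GGNNTTTCC of NF-kB were searched on both strands, and they occur in 7.81%, 1.79% and 5.82% of the 32851 promoters. Capitals mark 1 match to AP-1, beginning at -249, and 1 match to NF-kB, beginning at -43. A match describes letters and not binding.
Il6: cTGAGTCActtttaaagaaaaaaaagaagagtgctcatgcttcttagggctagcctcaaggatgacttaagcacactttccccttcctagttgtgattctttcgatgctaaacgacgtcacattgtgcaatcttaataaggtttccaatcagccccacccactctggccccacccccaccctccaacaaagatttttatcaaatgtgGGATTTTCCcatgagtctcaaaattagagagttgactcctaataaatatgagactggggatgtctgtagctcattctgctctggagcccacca

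*Lif* and the proximal promoter of *Il11* also hold a match to AP-1, beginning at -228 and at -98, whereas the second *Il11* window holds none of the motifs. The *Lif* window holds the start of Lif-202, with 25% of the *Lif* count, and Lif-201, with 73.5%, starts outside it at chr11:4267095. The letters TGACGTCA, searched for the cAMP response element, were found in none of the 6 windows, and variants of them were not searched. The table held promoters of 4 of the 8 genes, and *Tslp*, *Il7*, *Il15* and *Clcf1* were not in it.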

How the data were processed

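The authors trimmed reads with Trim Galore 0.4.0, checked them with FastQC 0.11.2 and quantified transcripts with kallisto 0.42.5, per the submitters' processing notes, which name the builds mm10 and GRCm38. The deposited estimated count is the number of reads assigned to a transcript, not normalized. The deposited TPM is that count per effective length, scaled to a fixed sum in each library. A single transcript took 14.8% to 55.9% of a library's TPM, so TPM served only as an alternative. Of 98492 transcripts, 97204 matched GENCODE M21 by identifier, and 97.8% to 99.2% of a library's count fell on them. The name of the transcript set was not given.

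Estimated counts were summed to 32386 symbols and rounded for testing. Tests used edgeR 4.0.16 in R 4.3.3 with limma 3.58.1, TMM factors and the quasi-likelihood test, two-sided, on genes that reached 6 counts in 3 or more libraries of the fit. The fits took all 30 libraries, the 12 libraries of Fgfr2+ and PDGFRα hi FB, or the 6 libraries of a pair, with populations weighted equally. Adjusted p-values run over all genes tested. SE is the log2 difference divided by the root of F. CPM used TMM factors of all 30 libraries and, on the log2 scale, a prior count of 2. Folds against populations with 3 counts or fewer in every library were set against a floor of 3 counts per library, which covers counting error only. Alternatives were DESeq2 1.42.0, edgeR's RLE factors in place of TMM, no filter, TPM and a replicate block. Others were all libraries in 1 model, the 15 libraries of a tissue in 1 model, and leaving out each library. The steps were checked, and tested on simulated data. Plots were drawn with matplotlib 3.10.9.

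The genes named are the 8 cytokine genes, the 30 pathway genes, the 12 early response genes, the cell type markers, and the 3 genes most like each cytokine gene, and 2 of these genes are not reported here. Receptors and early response genes given with values beyond counts were picked after their values were seen. The members and the lists were chosen with earlier results of these data known.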

Additional observations from a re-analysis of the deposited data

Results flagged for a closer look

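*Il33* differed between tissues in one fibroblast subset and not detectably in the other. The SI minus colon difference was 4.82 ± 0.70 on the log2 scale for PDGFRα hi FB and 0.34 ± 0.54 for Fgfr2+ FB. A test of the difference itself, the interaction of tissue and subset, gave 4.48 ± 0.87 at an adjusted p of 0.014 (edgeR). The Fgfr2+ gate was CD34- in the SI and CD34+ in the colon, and the PDGFRα hi gate rested on high PDGFRα in the SI and on PDPN in the colon, so that gate and tissue cannot be told apart in either subset. Groups of 3 libraries were not tested for outlying samples.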

How the results depend on the processing

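*Il33* kept its call and direction under all 17 alternatives between PDGFRα hi FB of the tissues (log2 difference 4.37 to 5.35) and in the interaction (4.04 to 5.01), and under all 11 between SI pericytes and SMC. Of 1359 fold values of members under alternatives, 36 had another sign than the reported value, and 0 of these belonged to a call. DESeq2 left 1 member value without an adjusted p. Levels relative to the gene's mean over the populations moved by no more than the SD in 80 of 80 cases with edgeR's RLE factors. With TPM they did so in 71, with 9 beyond it. Where a value moved, the cause was not tested.

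DESeq2 called 7 members over the 10 populations, 2 in SI FB versus mural cells, 5 in colonic FB versus pericytes, 2 in Fgfr2+ FB between tissues, 3 in SI CD34+ versus Fgfr2+ FB and 1 in CD81+ versus CD90+ FB. The genes it called numbered 6199 against 4528 by edgeR over the 10 populations, 2159 against 1604 in SI FB versus mural cells, 3261 against 2807 in colonic FB versus pericytes, 695 against 422 in Fgfr2+ versus PDGFRα hi FB, 517 against 276 in PDGFRα hi FB between tissues, 1071 against 485 in Fgfr2+ FB between tissues, 563 against 201 in the interaction, 354 against 0 in pericytes, 1057 against 395 in SI CD34+ versus Fgfr2+ FB, 527 against 34 in CD81+ versus CD90+ FB and 1254 against 393 in SI pericytes versus SMC.

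Without the filter, edgeR called 4 members over the 10 populations, *Lif* among them (adjusted p 0.0231), 2 in Fgfr2+ FB between tissues and 1 in CD81+ versus CD90+ FB, and 340 genes in the interaction, 22 in pericytes, 121 in CD81+ versus CD90+ FB and 639 in SI pericytes versus SMC. With all 30 libraries in 1 model, 1 member was called in CD81+ versus CD90+ FB. The genes were then 168 in PDGFRα hi FB between tissues, 255 in Fgfr2+ FB between tissues, 116 in the interaction, 1000 in pericytes, 213 in SI CD34+ versus Fgfr2+ FB, 109 in CD81+ versus CD90+ FB and 1784 in SI pericytes versus SMC. With the 15 libraries of a tissue in 1 model, 1 member was called in SI FB versus mural cells and 3 in colonic FB versus pericytes, as reported. Against SI pericytes alone, chosen after seeing the data, 2 members and 2909 genes were called in SI FB, against 1 and 1604.

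With replicate number as a block, 0 members were called in Fgfr2+ versus PDGFRα hi FB (*Il33* 3.55, adjusted p 0.0739) and 0 in SI CD34+ versus Fgfr2+ FB (*Il6*, adjusted p 0.0683). In Fgfr2+ FB between tissues the block gave *Il6* an adjusted p of 0.0717 and *Lif* one of 0.0163, at -4.08. Residuals of libraries with the same number had a mean r of 0.010 over 135 pairs, of which 3 exceeded 0.1, and 19 of 30 libraries correlated best with their own number, a hint from the data, not the design, that equal numbers are paired.

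Leaving out 1 library gave 3 to 5 members and 4002 to 5056 genes over the 10 populations, 0 to 2 and 1229 to 2010 in SI FB versus mural cells, 2 to 4 and 2234 to 3047 in colonic FB versus pericytes, and 0 to 1 and 310 to 424 in Fgfr2+ versus PDGFRα hi FB. It gave 1 to 1 and 183 to 341 in PDGFRα hi FB between tissues, 0 to 1 and 275 to 499 in Fgfr2+ FB between tissues, 1 to 1 and 139 to 226 in the interaction, and 0 to 0 and 0 to 1 in pericytes. It gave 0 to 3 and 59 to 859 in SI CD34+ versus Fgfr2+ FB, 0 to 1 and 0 to 220 in CD81+ versus CD90+ FB, and 1 to 1 and 183 to 363 in SI pericytes versus SMC. *Il11*, *Clcf1*, *Tslp* and *Il6* were at or under 3 counts in several libraries.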

Other observations

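*Il15ra*, which encodes the chain that presents interleukin-15, did not follow *Il15*. SI pericytes had 79.9, 61.6 and 78.2 CPM of *Il15ra* and colonic pericytes 51.8, 5.17 and 79.0 CPM, while their *Il15* was at most 1.77 CPM. SI SMC had 8.55, 11.2 and 0.991 CPM of *Il15ra* beside 6.75, 8.95 and 10.3 CPM of *Il15*. SI Fgfr2+ FB had both, with 74.2, 46 and 16.2 CPM of the receptor chain.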
